A study of Mus musculus with 9 samples.

Results

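The proteasome genes of mouse megakaryocytes were followed along maturation in culture. Members were the probe sets that carry exactly 1 gene symbol beginning with Psma, Psmb, Psmc, Psmd, Psme or Psmg. There were 81 of them among the 22690 probe sets of the Affymetrix MOE430A array, and they report 47 of the 12393 genes with a single symbol. After a filter on low signals 72 of these probe sets and all 47 genes remained, against 9382 genes in the whole table, and each gene was represented by the probe set with its highest mean. Psme2 was not analysed here because its probe set also carries the symbol of the near-identical Psme2b. RNA came from primary mouse cells grown with thrombopoietin, the cytokine of the platelet lineage, from marrow or fetal liver, and sorted on CD41, the integrin chain that marks megakaryocytes, and by forward scatter, a readout of size. MKP, MK3 and MK4 have 2 arrays each, and MK6 has 3. The numbers 3, 4 and 6 match the days on which cultures were collected, and no day is given for MKP. The labels name no genotype, strain, age or sex, do not say which tissue each array came from, and do not say whether arrays of a stage were separate cultures, so p-values here reflect no more than array-to-array spread, possibly technical.

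The proteasome breaks down proteins tagged with ubiquitin. Its 20S core is a barrel of alpha rings that gate the entry and beta rings that hold the catalytic sites, and a 19S cap with ATPase and non-ATPase subunits recognises, unfolds and feeds in the substrate. Interferon and haematopoietic identity bring in 3 alternative catalytic subunits, Psmb8, Psmb9 and Psmb10, which take the places of Psmb5, Psmb6 and Psmb7 in newly built cores, and the resulting immunoproteasome is known for cutting peptides for MHC class I. In the platelet lineage, proteasome activity is known to be needed for platelet production, and platelets themselves carry proteasomes.

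Values are MAS5 signals, scaled here to a common trimmed mean of 161, and differences are between means of log2(signal + 15.2), which understates the change of dim genes. Deposited trimmed means ran from 102 to 221. The beta-actin control's 3′ signal over its 5′ signal, which rises as RNA fragments, was 1.49, 1.33 and 3.21 on MK6 replicates 1, 2 and 3, against 0.957 to 1.09 on the 6 arrays of the other stages. The lowest deposited trimmed means, 103 and 102, were those of MK6 replicates 1 and 3. MK6 replicates 2 and 3 are the arrays whose titles read replicate1 and replicate2. Megakaryocyte markers did not all run the same way. Itga2b encodes CD41, itself a sort marker here, and had 3394, 3678 and 2856 on the MK6 arrays, against 1301 and 979 on the MKP arrays. Itgb3, its partner chain, had 143, 56.4 and 15.0 in MK6, against 262 and 269.6 in MKP (-2.01, limma, adjusted p = 0.0568). Of the 7 markers tested 2 were called higher (Itga2b and Vwf) and 0 lower, against 2.76% and 2.94% of all genes. All MK6 arrays lay below both MKP arrays for Itgb3 and Ppbp, as they did for 18.8% of all genes. The 7 summed to 15248 to 18479 in MK6, against 8455 to 8890 in MKP, with Pf4 alone at 7265 to 11328 in MK6, against 4183 to 4314 in MKP. Summed signals of 10 neutrophil markers were 12667, 28898 and 6558 on MK6 replicates 1, 2 and 3, against 47412 and 38597 on the MKP arrays, and none of the 10 was below the filter throughout. Of the 9 macrophage markers the sums were 13220 to 31107 in MK6 and 10794 to 13578 in MKP, with Lyz2 alone at 5035 to 12479 in MK6. These markers also ran both ways. By limma 3 of the 9 were called higher (Ctss, Cd68 and Mmp12) and 2 lower (Cybb and Itgam), against 2.76% and 2.94% of all genes. Lymphocyte marker sums were 227 to 508 in MK6 and 258 to 301 in MKP, with Cd3e and Cd3g below the filter on all 9 arrays. Those of erythroid markers were 92.5 to 181 in MK6 and 199.7 to 205 in MKP, with Epb42 and Slc4a1 below the filter on all 9, and those of hepatocyte markers 98.0 to 299.9 in MK6 and 518 to 538 in MKP, with 2815 and 3562 in MK3. In bulk RNA, fewer cells of a type and less RNA per cell cannot be told apart.

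Among the proteasome genes, the largest differences between MK6 and MKP were those of the activator gene Psme3, the immunoproteasome gene Psmb10 and the 19S gene Psmc5, all lower in signal in MK6. By limma, with Benjamini-Hochberg adjustment over all 9382 genes, 2 of the 47 members were called lower in MK6 than in MKP, Psmb10 and Psme3, and 0 were called higher. That is 4.26% of the members, against 5.7% of all genes called in either direction (535), 2.94% called lower (276) and 2.76% called higher (259), so the share of calls was near that of the whole table. At an unadjusted p below 0.05 there were 11 of 47 members, against 23.8% of all genes. All 3 MK6 arrays lay below both MKP arrays for 14 members, against 18.8% of all genes, and above both for 4 members, against 24.5%. The median difference was -0.13 over the members and 0.12 over all genes, and 29 of 47 differences were negative, against 40.9% of all genes. The members' median turned to 0.05 with MK6 replicates 1 and 3 both left out. The count of 2 called members became 0 when either MKP array was left out, 1 when either MK4 array or MK6 replicate 1 or 3 was, and 5 of 47 without MK6 replicate 2 (Psmb9, Psmb10, Psmc5, Psmd7 and Psme3), where 11.7% of all genes were called. Without the first or second MKP array 0.0322% and 0.236% of all genes were called. With MK6 replicates 1 and 3 both left out the count was 0 of 46 members that passed the filter, against 0.528% of all genes.

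**Figure D1:**
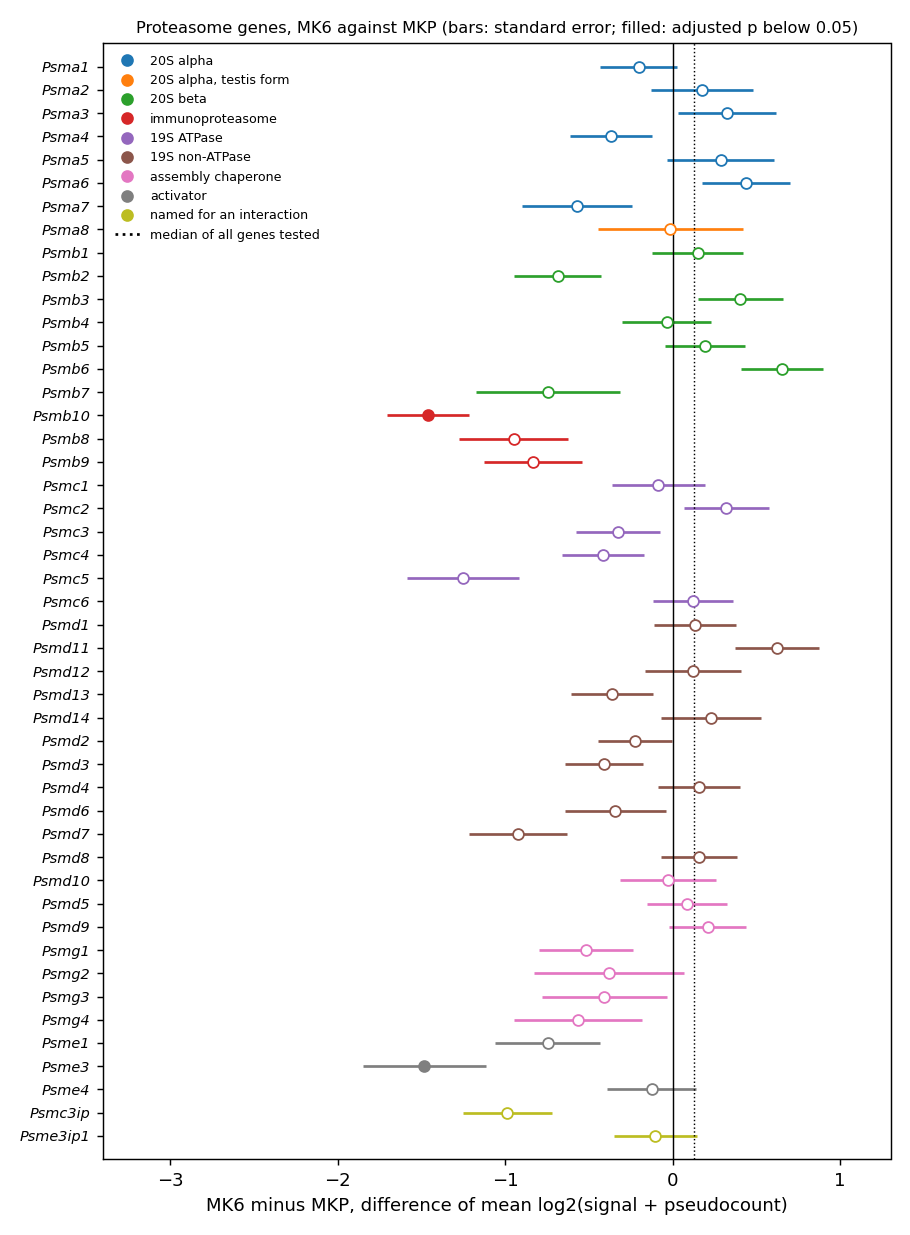
Difference of mean log2(signal + pseudocount) between MK6 and MKP for the 47 proteasome genes (horizontal axis, log2 units; bars are standard errors of the limma fit, filled points passed the adjusted threshold, the dotted line is the median of all genes). Psmb10 at -1.46 and Psme3 at -1.48 are the filled points, and the 3 immunoproteasome genes lie left of every other 20S subunit.

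The steps between neighbouring stages gave no called member. For MK3 against MKP, limma called 0 of 47 members, against 0.0533% of all genes, with 1 member at an unadjusted p below 0.05, against 9.91% of all genes. For MK4 against MK3 it called 0 of 47, against 0.0107% of all genes, with 2 members at that unadjusted level, against 3.6%. For MK6 against MK4 it called 0 of 47, against 0.0213% of all genes, with 3 at the unadjusted level, against 10.4%. The moderated F test over the 3 steps called 1 member, Psmb10 (adjusted p = 0.0242), against 2.79% of all genes. This count became 0 without either MKP array or MK6 replicate 3, and 3 without MK6 replicate 2, against 4.16% of all genes in that fit. In MK6 against MK4, leaving out MK6 replicate 2 gave 1 called member, Psme3, against 1.29% of all genes.

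Of the role groups, the 3 immunoproteasome genes had the lowest median difference in MK6 against MKP, -0.95, against 0.12 for all genes. By limma 1 of 3 members (Psmb10) was called lower and 0 higher, against 2.94% and 2.76% of all genes. Psmb10 encodes the inducible counterpart of the trypsin-like subunit. Its scaled signals were 526 and 405 in MKP, 498 and 452 in MK3, 211 and 327 in MK4, and 142, 175 and 159 in MK6. Every MK4 and MK6 array lay below every MKP and MK3 array, and the MK6 arrays lay close together. The log2 mean was 7.44 ± 0.13 in MK6 and 8.90 ± 0.26 in MKP (SD, n = 3 and 2), so Psmb10 fell by 1.46 ± 0.24 log2 units (SE, limma, adjusted p = 0.0106), 2.75 times lower in MK6. The successive steps for it were 0.04 ± 0.27 for MK3 against MKP, -0.82 ± 0.27 for MK4 against MK3 and -0.68 ± 0.24 for MK6 against MK4. The size held between -1.64 and -1.28 with any 1 array left out. The call ended without MKP replicate 1 (-1.28, adjusted p = 0.16) and without MKP replicate 2 (-1.64, adjusted p = 0.0852). With MK6 replicates 1 and 3 both left out the value was -1.33 (adjusted p = 0.12), and in a fit that took the actin ratio as a covariate it was -1.46 (adjusted p = 0.28).

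Psmb8, the inducible chymotrypsin-like subunit, had scaled signals of 542 and 450 in MKP, 618 and 420 in MK3, 255 and 519 in MK4, and 187, 307 and 266 in MK6. The MK6 arrays all lay below both MKP arrays, while the 2 MK4 arrays lay far apart. Its difference in MK6 against MKP was -0.95 ± 0.33 (SE, limma, adjusted p = 0.11), which did not pass, with a 95% interval of -1.67 to -0.23. Psmb9, which takes the place of Psmb6, had 325 and 359 in MKP, 418 and 376 in MK3, 188 and 295 in MK4, and 129, 255 and 190.2 in MK6. Here too the MK6 arrays lay below both MKP arrays and MK4 replicate 1 was the lower of its stage. The difference was -0.83 ± 0.29 (SE, limma, adjusted p = 0.12), with an interval of -1.48 to -0.19. Over single arrays left out Psmb9 ran from -1.05 to -0.60, and passed only without MK6 replicate 2 (-1.05, limma, adjusted p = 0.0439).

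**Figure D2:**
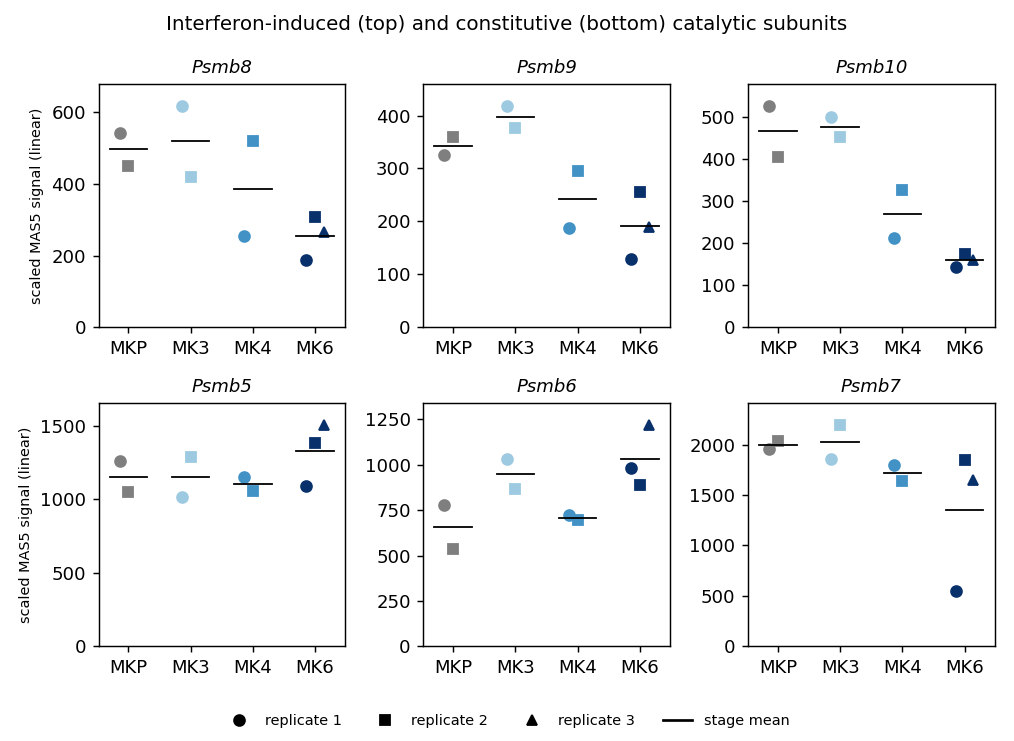
Scaled MAS5 signal (vertical axis, linear, from 0) of the interferon-induced catalytic genes (top row) and the constitutive genes they replace (bottom row) on each array by stage; points are arrays, marked by replicate, and lines are stage means. All 3 MK6 arrays lie below both MKP arrays in the top row, whereas in the bottom row all MK6 arrays of Psmb6 lie above both MKP arrays and Psmb7 is low on MK6 replicate 1 alone (547).

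As a description, Pearson's r of their log2 values was 0.93 for Psmb8 and Psmb9, 0.92 for Psmb8 and Psmb10 and 0.90 for Psmb9 and Psmb10, over 9 arrays that share stages and scaling. Psme1, the interferon-induced activator gene, had r of 0.82, 0.88 and 0.80 with Psmb8, Psmb9 and Psmb10. Pairs within the 14 constitutive 20S genes had a median r of 0.41 (-0.84 to 0.93), and the 42 pairs of an immunoproteasome with a constitutive gene a median of 0.065. The mean log2 value of the 3 genes, set against its MKP mean, was -0.94 on MK4 replicate 1 and -0.20 on MK4 replicate 2, with neutrophil marker sums of 27532 and 24896 on these arrays. It was -1.41, -0.80 and -1.04 on MK6 replicates 1, 2 and 3, with neutrophil sums of 12667, 28898 and 6558. On the MKP arrays it was 0.082 and -0.082, with neutrophil sums of 47412 and 38597. On the MK3 arrays it was 0.23 and -0.041, with neutrophil sums of 34856 and 35992. Macrophage marker sums were 13578 and 10794 on the MKP arrays, 29994 and 14866 on the MK3 arrays, and 13457 and 18390 on the MK4 arrays. They were 31107, 13220 and 15344 on MK6 replicates 1, 2 and 3. The part of neutrophil or macrophage RNA in the lower values of MK6 was not tested.

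The promoter windows of these genes are shown because several are textbook interferon targets, while the constitutive counterparts are known to respond to the antioxidant-element factor Nfe2l1. RefSeq promoters (GRCm38.p6, 250 bases before to 30 after the annotated start) matched 39 of the 47 members. Motifs searched on both strands were GAAA, any 2 bases and GAAA for the interferon-stimulated response element, TTCNNNGAA for the gamma-activated site, TGACNNNGC for the antioxidant response element core, and TGCTGA, any base and TCA for the NF-E2 site, whose letters can overlap the core. The letters in capitals below mark matches. In the same windows of all 27025 genes they occur in 3.8%, 9.04%, 13% and 0.459%, and in 5, 3, 6 and 0 of the 39 members. The response element letters were found in Psmb3, Psmd4, Psmd9, Psme1 and Psmg4, the gamma-activated letters in Psmb8, Psmd2 and Psmg1, and the antioxidant core in Psmb5, Psmb6, Psmc6, Psmd12, Psmd9 and Psme4. The windows lie at chr17:34197945-34198224 (plus strand) for Psmb8, chr17:34187301-34187580 (minus strand) for Psmb9, chr8:105938363-105938642 (minus strand) for Psmb10, chr14:55578244-55578523 (plus strand) for Psme1, chr14:54617966-54618245 (minus strand) for Psmb5 and chr11:70525107-70525386 (plus strand) for Psmb6. Psmb8 holds a gamma-activated match that begins 97 bases before the start and Psme1 a response element match at base 10 after it, and the antioxidant core begins 47 bases before the start in Psmb5 and 9 bases before it in Psmb6. No match was found in the windows of Psmb9 and Psmb10, which says only that these letters are not in these windows.
Psmb8: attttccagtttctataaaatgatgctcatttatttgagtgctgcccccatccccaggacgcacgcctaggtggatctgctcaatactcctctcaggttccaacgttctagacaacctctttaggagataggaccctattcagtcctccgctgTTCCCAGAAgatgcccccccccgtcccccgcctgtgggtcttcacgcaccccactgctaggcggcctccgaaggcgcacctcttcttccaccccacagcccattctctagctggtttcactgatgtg
Psmb9: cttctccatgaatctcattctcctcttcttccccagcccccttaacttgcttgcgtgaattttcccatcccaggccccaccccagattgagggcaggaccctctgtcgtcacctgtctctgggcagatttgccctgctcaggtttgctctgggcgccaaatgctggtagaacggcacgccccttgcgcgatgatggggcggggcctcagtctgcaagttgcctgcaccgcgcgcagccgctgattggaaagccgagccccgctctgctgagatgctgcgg
Psmb10: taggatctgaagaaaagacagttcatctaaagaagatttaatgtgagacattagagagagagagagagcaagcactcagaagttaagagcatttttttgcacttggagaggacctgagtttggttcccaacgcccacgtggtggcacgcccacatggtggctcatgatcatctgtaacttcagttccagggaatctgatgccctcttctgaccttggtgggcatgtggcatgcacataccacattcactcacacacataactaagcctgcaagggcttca
Psme1: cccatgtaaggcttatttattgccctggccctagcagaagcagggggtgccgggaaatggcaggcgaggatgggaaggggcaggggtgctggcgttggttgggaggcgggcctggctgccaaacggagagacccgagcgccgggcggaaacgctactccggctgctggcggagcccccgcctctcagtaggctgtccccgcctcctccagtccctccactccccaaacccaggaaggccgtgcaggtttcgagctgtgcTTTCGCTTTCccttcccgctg
Psmb5: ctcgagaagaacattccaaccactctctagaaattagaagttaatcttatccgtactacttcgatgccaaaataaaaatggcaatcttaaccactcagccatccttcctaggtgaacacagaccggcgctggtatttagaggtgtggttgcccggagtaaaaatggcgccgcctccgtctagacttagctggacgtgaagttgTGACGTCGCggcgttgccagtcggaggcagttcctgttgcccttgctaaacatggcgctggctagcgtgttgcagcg
Psmb6: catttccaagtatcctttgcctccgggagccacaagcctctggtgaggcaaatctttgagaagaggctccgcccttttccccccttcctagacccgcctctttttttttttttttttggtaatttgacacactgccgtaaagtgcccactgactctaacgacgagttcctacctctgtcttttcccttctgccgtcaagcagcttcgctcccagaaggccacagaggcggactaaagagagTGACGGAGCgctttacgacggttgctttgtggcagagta

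None of the 3 constitutive catalytic genes was called. Psmb5, the chymotrypsin-like subunit, had 1263 and 1047 in MKP, 1015 and 1288 in MK3, 1149 and 1059 in MK4, and 1089, 1382 and 1507 in MK6. The stages overlapped, and its difference in MK6 against MKP was 0.19 ± 0.24 (SE, limma, adjusted p = 0.64; 95% interval -0.33 to 0.71). Psmb6, the caspase-like subunit, had 779 and 534 in MKP, 1030 and 867 in MK3, 721 and 696 in MK4, and 982, 886 and 1221 in MK6. All MK6 arrays lay above both MKP arrays, with a difference of 0.65 ± 0.24 (SE, limma, adjusted p = 0.14) that did not pass. Psmb7, the trypsin-like subunit, had 1960 and 2039 in MKP, 1861 and 2196 in MK3, 1796 and 1634 in MK4, and 547, 1848 and 1643 in MK6. One array, MK6 replicate 1, set its difference of -0.74 ± 0.43 (SE, limma, adjusted p = 0.31), which was -0.20 (adjusted p = 0.63) without it.

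Each inducible gene was then set against the gene whose place it takes, as the log2 difference between the pair on each array relative to the MKP mean of that difference. Psmb8 minus Psmb5 was 0.00 on both MKP arrays, 0.49 and -0.39 in MK3, -0.91 and 0.19 in MK4, and -1.25, -0.92 and -1.24 in MK6. The MK6 mean was 1.14 below that of MKP, with SDs of 0.19 and 0.0034 (n = 3 and 2). An exact permutation test of the F statistic over all 7560 assignments of the arrays to the stages gave p = 0.0992 (adjusted p = 0.16 over the 3 pairs compared). Psmb9 minus Psmb6 was -0.33 and 0.33 in MKP, -0.38 and -0.29 in MK3, -0.97 and -0.31 in MK4, and -1.90, -0.85 and -1.70 in MK6. The MK6 arrays again lay below both MKP arrays, the mean by 1.48. The same exact permutation test, which compares all stages, gave p = 0.10 (adjusted p = 0.16). Psmb10 minus Psmb7 was 0.21 and -0.21 in MKP, 0.21 and -0.16 in MK3, -0.92 and -0.19 in MK4, and 0.24, -1.22 and -1.17 in MK6. Here the stages overlapped, with both genes low on MK6 replicate 1, and the MK6 mean was -0.72 relative to MKP. The exact permutation test between all stages gave p = 0.45 (adjusted p = 0.45). Without MK6 replicate 1 the mean was -1.20, and the test between all stages gave an adjusted p of 0.20. None of the 3 pairs passed the threshold between stages, and MK6 against MKP alone was not tested for them.

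**Figure D3:**
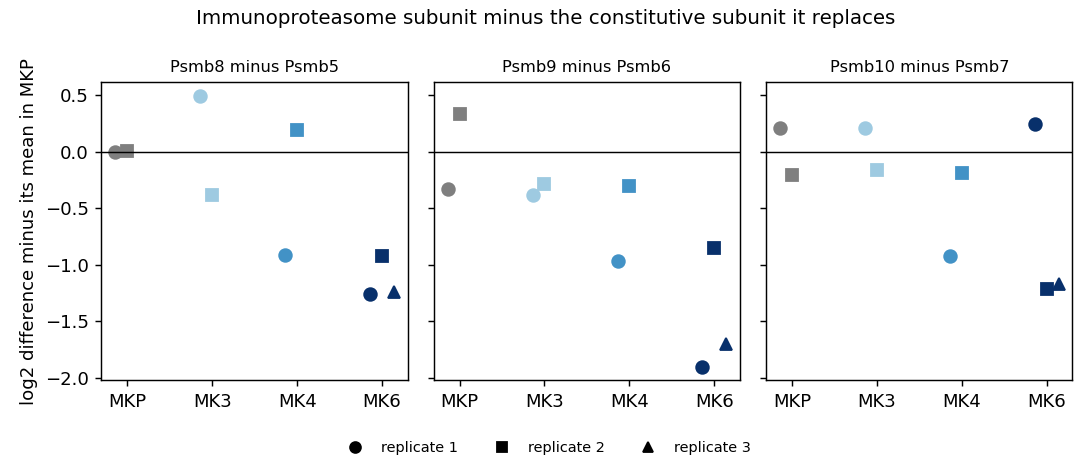
Log2 difference between each immunoproteasome gene and the constitutive gene it replaces, minus the mean of that difference in MKP (vertical axis, log2 units), on each array by stage, with replicates marked by shape. MK6 arrays lie between -0.85 and -1.90 in the first 2 panels and MK6 replicate 1 lies at 0.24 in the third.

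The remaining 20S genes, which build the barrel, gave no call. Among the 7 alpha subunits, which form the outer rings and the gate, 0 were called higher and 0 lower in limma, against 2.76% and 2.94% of all genes. At an unadjusted p below 0.05 there were 0, against 23.8% of all genes. Differences ran from -0.57 to 0.44 (median 0.17, against 0.12 for all genes). Psma7 had 1104 and 816 in MKP, 686 and 886 in MK3, 875 and 733 in MK4, and 388, 765 and 854 in MK6. Its difference of -0.57 ± 0.33 (SE, limma, adjusted p = 0.30) overlapped between the groups and rested on MK6 replicate 1, without which it was -0.23 (adjusted p = 0.62). Psma6 lay at the other end, with 1214 and 1087 in MKP, 1139 and 1356 in MK3, 1161 and 1156 in MK4, and 1168, 1576 and 2065 in MK6. The groups overlapped on MK6 replicate 1 and the difference was 0.44 ± 0.26 (SE, limma, adjusted p = 0.33). The other kept probe sets of Psma6 lay at -0.015 and -0.29, and with its kept probe sets averaged the difference was 0.044. Among the 7 constitutive beta subunits 0 were called in either direction, against 5.7% of all genes, and the median was 0.15. At the unadjusted level there were 2 (Psmb2 and Psmb6), against 23.8% of all genes. Psmb2, a non-catalytic beta subunit, had 452 and 529 in MKP, 346 and 463 in MK3, 321 and 431 in MK4, and 348, 334 and 228 in MK6. All MK6 arrays were below both MKP arrays, at -0.69 ± 0.26 (SE, limma, adjusted p = 0.14). The median over the 14 constitutive 20S genes was 0.16 and changed sign to -0.006 without MK6 replicate 3, and to -0.26 in the fit with the actin ratio, so no direction is given for it. The median of the 3 immunoproteasome genes stayed between -1.33 and -0.66 in every setting run. Psma8, the testis form of an alpha subunit, stayed dim at 7.45 to 56.7 on all 9 arrays.

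The 19S cap had 0 of 17 members called in either direction in limma, against 5.7% of all genes. At an unadjusted p below 0.05 there were 3, against 23.8% of all genes. The median was -0.085, against 0.12 for all genes. It turned to 0.078 without MK6 replicate 1 and 0.0073 without MKP replicate 1. Psmc5, an ATPase of the ring that unfolds substrates, had 622 and 496 in MKP, 408 and 436 in MK3, 395 and 366 in MK4, and 136, 372 and 219 in MK6. Its MK6 arrays lay below both MKP arrays and spread widely, at -1.25 ± 0.34 (SE, limma, adjusted p = 0.0546), just short of the threshold. Over single arrays left out it ran from -1.60 to -0.92, and passed only without MK6 replicate 2 (-1.60, limma, adjusted p = 0.0085). Psmc4, another ATPase, had 487 and 499 in MKP, 335 and 410.5 in MK3, 404 and 321 in MK4, and 311, 331 and 475 in MK6, a difference of -0.42 ± 0.24 (SE, limma, adjusted p = 0.31). The other kept probe set of Psmc4 lay at 0.21 (limma, adjusted p = 0.86 over probe sets). The other 4 ATPase genes lay between -0.33 (Psmc3) and 0.32 (Psmc2). Among the 11 non-ATPase genes the extremes were Psmd7 and Psmd11. Psmd7, the partner of the deubiquitinase Psmd14, had 260.3 and 284 in MKP, 144 and 223 in MK3, 244 and 211 in MK4, and 97.1, 195 and 131 in MK6. The MK6 arrays were below both MKP arrays, at -0.93 ± 0.29 (SE, limma, adjusted p = 0.0927). Over single arrays left out the value ran from -1.16 to -0.71, and passed only without MK6 replicate 2 (-1.16, limma, adjusted p = 0.0279). Another, much dimmer probe set of Psmd7 gave 1.08 (adjusted p = 0.12 over probe sets). Psmd11, a scaffold subunit of the lid, had 1433 and 1309 in MKP, 1246 and 1728 in MK3, 1504 and 1659 in MK4, and 1789, 2087 and 2541 in MK6. It was the highest 19S difference, 0.62 ± 0.25 (SE, limma, adjusted p = 0.16), with the MK6 arrays above both MKP arrays, and its other kept probe sets lay between -0.087 and 0.80. Psmd14 itself lay at 0.23 (adjusted p = 0.66).

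Activators dock on the core in place of the 19S cap. Psme3 encodes the nuclear activator PA28 gamma, which promotes ubiquitin-independent breakdown. Its scaled signals were 341 and 490 in MKP, 246 and 293 in MK3, 342 and 278 in MK4, and 87.2, 253 and 112 in MK6. Both MKP arrays lay above all MK6 arrays, and MK6 replicate 2 stood apart from the other MK6 arrays, within the range of MK3. The log2 mean was 7.25 ± 0.73 in MK6 and 8.73 ± 0.35 in MKP (SD, n = 3 and 2), and Psme3 fell by 1.48 ± 0.37 log2 units (SE, limma, adjusted p = 0.0414), 2.8 times lower in MK6. A second probe set of Psme3 had 396 and 412 in MKP, 185 and 224 in MK3, 357 and 202 in MK4, and 160.2, 186 and 135 in MK6. That probe set lay at -1.26 ± 0.27 (SE, limma, adjusted p = 0.0238 over 14516 probe sets) and also passed. The call on the first probe set was close to the threshold. It ended without either MKP array (-1.73 without the first, -1.23 without the second), without either MK4 array (-1.48 in both cases), and without MK6 replicate 1 (-1.20) or MK6 replicate 3 (-1.36), with adjusted p of 0.0614 to 0.30 in these. With MK6 replicates 1 and 3 both left out the value was -0.66 (adjusted p = 0.37), and in the fit with the actin ratio it was -1.08 (adjusted p = 0.52).

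Psme1 encodes PA28 alpha, the interferon-induced activator partner of the immunoproteasome. It had 1362 and 1115 in MKP, 1315 and 1263 in MK3, 953 and 945 in MK4, and 444, 969 and 896 in MK6. All MK4 and MK6 arrays lay below all MKP and MK3 arrays, and the difference in MK6 against MKP was -0.75 ± 0.31 (SE, limma, adjusted p = 0.18), which did not pass. It was -0.40 (adjusted p = 0.29) without MK6 replicate 1. Psme4, the PA200 activator linked to histone breakdown, had 449 and 472 in MKP, 381 and 458 in MK3, 523 and 411 in MK4, and 334, 590 and 377 in MK6. Its groups overlapped, at -0.13 ± 0.27 (SE, limma, adjusted p = 0.79). Another kept probe set of Psme4 had 299 and 336 in MKP and 498, 544 and 458 in MK6. It lay at 0.63 (limma, adjusted p = 0.12 over probe sets), and the remaining kept probe set lay at -0.18.

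**Figure D4:**
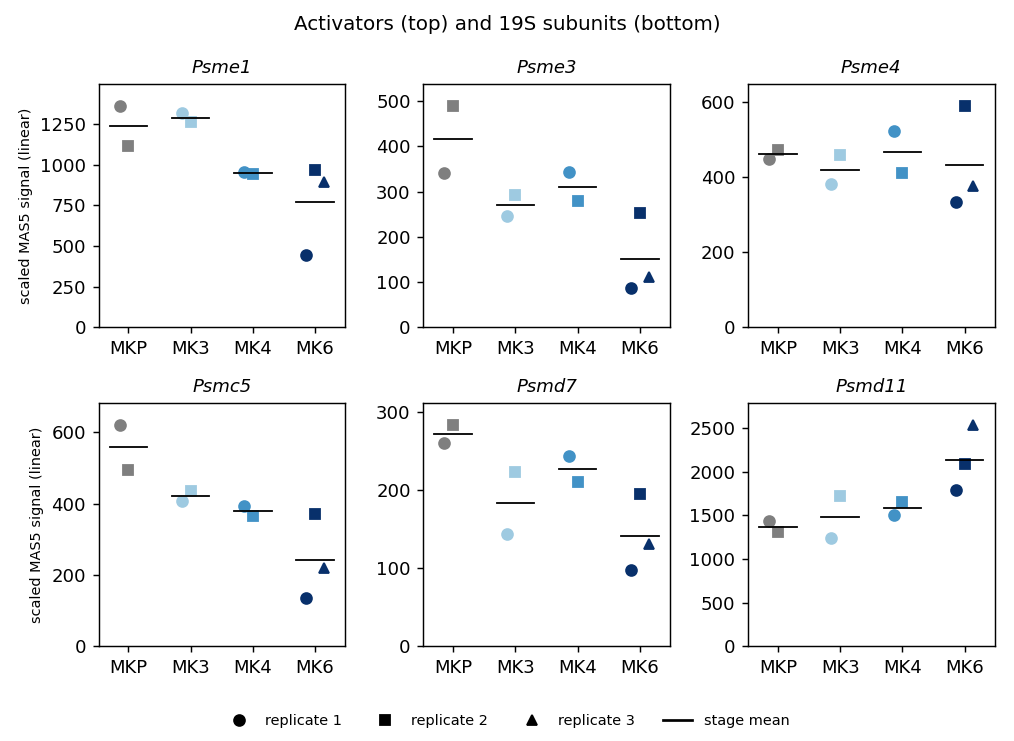
Scaled MAS5 signal (vertical axis, linear, from 0) of the 3 activator genes (top row) and of the 19S genes Psmc5, Psmd7 and Psmd11 (bottom row) on each array by stage; points are arrays, marked by replicate, and lines are stage means. MK6 replicates 1 and 3 of Psme3 lie at 87.2 and 112, while Psmd11 is highest on the MK6 arrays (1789 to 2541).

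Assembly chaperones, which guide the rings together and then leave, had 0 of 7 members called in limma, against 5.7% of all genes. At an unadjusted p below 0.05 there were 0, against 23.8% of all genes. Their median of -0.38 turned to 0.17 with MK6 replicates 1 and 3 both left out and was -0.016 without MK6 replicate 1. The 4 Psmg genes, which pair up to build the alpha ring, lay at -0.52 (Psmg1), -0.38 (Psmg2), -0.41 (Psmg3) and -0.57 (Psmg4). Psmg4 had 304 and 287 in MKP, 212 and 255 in MK3, 192 and 229.9 in MK4, and 94.5, 255 and 296 in MK6. Its difference of -0.57 ± 0.38 (SE, limma, adjusted p = 0.38) was set by MK6 replicate 1 and was -0.10 (adjusted p = 0.83) without it. Psmg1 had 473 and 434 in MKP, 243 and 329 in MK3, 353 and 317 in MK4, and 220.2, 431 and 317 in MK6. All later arrays lay below both MKP arrays, though MK6 replicate 2 only just, and the difference was -0.52 ± 0.28 (SE, limma, adjusted p = 0.27). The base chaperones Psmd5, Psmd9 and Psmd10 lay at 0.087, 0.21 and -0.029. The remaining 2 members share the prefix without being proteasome subunits. Psmc3ip, a meiotic recombination factor, had 189.7 and 121 in MKP, 78.9 and 64.3 in MK3, 102 and 86.8 in MK4, and 67.1, 65.5 and 74.5 in MK6. Its later arrays all lay below both MKP arrays, at -0.99 ± 0.27 (SE, limma, adjusted p = 0.0546), and Psme3ip1, with overlapping groups, lay at -0.10. Psmc3ip passed the threshold when arrays were scaled to a common median or the kept probe sets of a gene were averaged, and Psme3 did not pass with the common median.

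The 3 MK6 arrays were not alike for the 47 members. The lowest MK6 value fell on replicate 1 for 39 of 47 members, on replicate 2 for 4 and on replicate 3 for 4, whereas over all genes these shares were 31.5%, 44.1% and 24.4%. The mean over the 7 alpha genes, relative to MKP, was -0.50 on MK6 replicate 1, 0.17 on replicate 2 and 0.37 on replicate 3. For the 6 ATPase genes it was -0.68, -0.069 and -0.073, and for the 7 assembly chaperones -0.72, 0.12 and -0.093. Among the 7 role groups with 3 or more genes, the immunoproteasome genes, the activators and the ATPase genes were below their MKP mean on all 3 MK6 arrays. The activators were at -1.31, -0.22 and -0.82. MK6 replicate 1 had a beta-actin ratio of 1.49 and a scale factor of 1.57, and MK6 replicate 3 had 3.21 and 1.58. The same ratio of the Gapdh control was 0.996, 1.13 and 3.27 on MK6 replicates 1, 2 and 3, against 0.805 to 0.970 on arrays of the other stages. Macrophage marker sums were 31107 on MK6 replicate 1, 13220 on replicate 2 and 15344 on replicate 3, and lymphocyte marker sums 508, 227 and 296. The part of RNA quality, scaling and other cell types in the low members of replicate 1 was not tested. The median over all members was -0.019 without MK6 replicate 1.

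**Figure D5:**
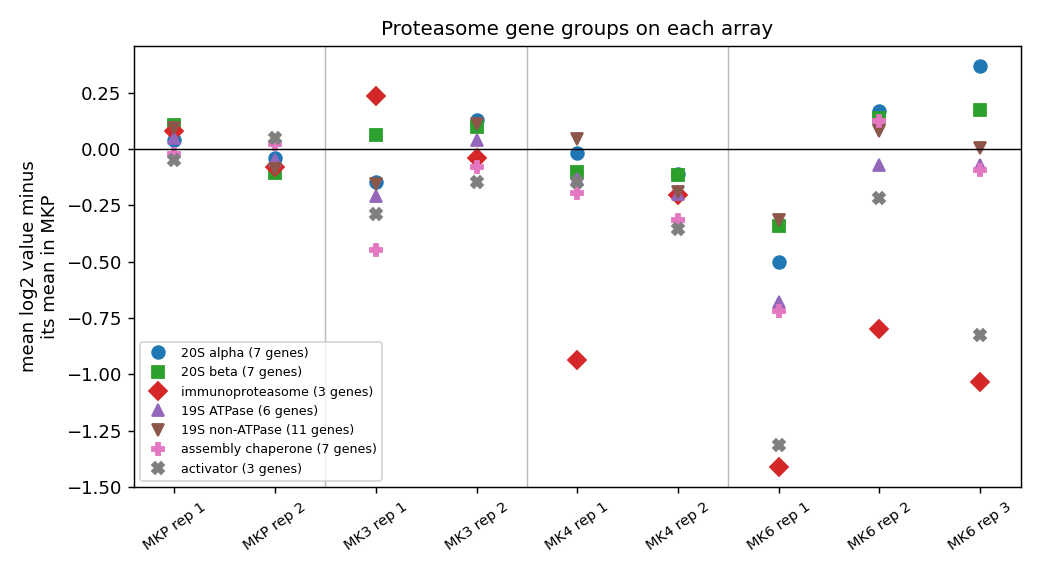
Mean log2 value of each proteasome gene group on each of the 9 arrays, minus the mean of that group in MKP (vertical axis, log2 units; points are groups, numbers of genes in the legend). The immunoproteasome group lies at -0.94 on MK4 replicate 1 and at -0.80 to -1.41 on the MK6 arrays. Every group shown is at its lowest on MK6 replicate 1. Assembly chaperones also lie at -0.45 on MK3 replicate 1, and activators at -0.82 on MK6 replicate 3.

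Around the proteasome, the list of partners and regulators had 1 of 21 tested members called higher and 0 lower in limma, against 2.76% and 2.94% of all genes, with a median of 0.10, against 0.12 for all genes. The called gene was Nfe2l2, the transcription factor of the antioxidant response. It had 562.5 and 593 in MKP, 752 and 881 in MK3, 1022 and 945 in MK4, and 1049.6, 1304 and 1191 in MK6. No MKP array reached any later array, and Nfe2l2 rose by 1.01 ± 0.21 (SE, limma, adjusted p = 0.023). The call ended without either MKP array (0.97 and 1.04, adjusted p = 0.23 and 0.19) or MK6 replicate 3 (0.9996, adjusted p = 0.0649), and with a common median (0.88, adjusted p = 0.14). Nfe2l1, the factor that drives proteasome gene transcription when proteasomes fail, lay at 0.15 ± 0.21 (SE, limma, adjusted p = 0.69). Of the partners at the cap, the deubiquitinase gene Usp14 lay at 0.92 ± 0.33 (SE, limma, adjusted p = 0.12) and that of the other cap deubiquitinase, Uchl5, at -0.69 ± 0.36 (SE, limma, adjusted p = 0.27). Over single arrays left out Usp14 ran from 0.59 to 1.20, and passed only without MK6 replicate 2 (1.20, limma, adjusted p = 0.0367). Zfand5, an activator of the 26S particle, lay at 0.82 ± 0.24 (SE, limma, adjusted p = 0.0727). Over single arrays left out it ran from 0.72 to 0.92, and passed only without MK6 replicate 1 (0.89, limma, adjusted p = 0.0488). Pomp, the chaperone that closes the core, lay at -0.36, and Psmf1, an inhibitor, at 0.10.

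Of the antigen processing and interferon list, 1 of 18 tested members was called lower and 0 higher in limma, against 2.94% and 2.76% of all genes, with a median of -0.23, against 0.12 for all genes. The called gene was Stat2, a signal transducer of the type I interferon receptor. It had 209.6 and 231 in MKP, 475 and 322 in MK3, 224 and 409.6 in MK4, and 104, 87 and 53.6 in MK6. MK6 arrays were the lowest and MK3 lay above MKP, and Stat2 fell by 1.32 ± 0.32 (SE, limma, adjusted p = 0.0399) in MK6 against MKP. The call ended without either MKP array (-1.38 and -1.25) or MK6 replicate 3 (-1.09), with adjusted p of 0.11 to 0.25. The peptide-loading chaperone gene Pdia3 lay at -1.17 ± 0.33 (SE, limma, adjusted p = 0.0659). Over single arrays left out it ran from -1.51 to -0.86, and passed only without MK6 replicate 2 (-1.51, limma, adjusted p = 0.0107). The interferon gamma receptor gene Ifngr1 lay at -1.02 ± 0.28 (SE, limma, adjusted p = 0.0596), and ran from -1.24 to -0.80 over single arrays left out. Irf1, a factor that induces immunoproteasome genes, lay at -0.73 ± 0.23 (SE, limma, adjusted p = 0.0924), with signals of 325, 264 and 307 in MK6, against 521 and 485 in MKP. Of the other members, the peptide transporter genes Tap1 and Tap2, neighbours of Psmb8 and Psmb9 in the MHC, lay at 0.22 and 0.013. B2m lay at 0.38, H2-K1 at -0.31 and H2-D1 at 0.092. Calr, Erap1 and Canx lay at -0.54, -0.45 and -0.43, and none of these genes was called. Differences were negative for 12 of the 18 tested members, against 40.9% of all genes.

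Of the 18 member genes with more than 1 kept probe set, 11 had probe sets on both sides of 0 in MK6 against MKP. Among them were Psmb3 (-0.58 and 0.40), Psmd4 (-0.68 to 0.16), Psma5 (-0.0073 to 0.82), Psma6 (-0.29 to 0.44) and Psme4 (-0.18 to 0.63). The 3 immunoproteasome genes have a single probe set each. Fitted one by one, 3 of the 72 kept probe sets were called lower, those of Psmb10 and both of Psme3, and 0 higher, while 6.91% of all 14516 probe sets were called in either direction.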

How the data were processed

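RNA of 9 samples was measured on Affymetrix MOE430A arrays from biotin-labelled RNA. The deposited values are probe set intensities on a linear scale made by the authors. The submitters' processing notes name MAS5, with version and settings not given in the sources used here. Detection calls played no part.

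Titles gave each array's stage, and replicates were numbered in listed order. Deposited trimmed means, with 2% taken off each end, differed by more than 10%, so arrays were scaled to 1 trimmed mean (161). The measure was log2(signal + 15.2), the 20th percentile of all scaled signals. Symbols came from the platform annotation, updated by gene ID. The probe set with the highest mean log2 value stood for its gene and was kept if its signal passed 46.7, the 40th percentile, on at least 2 arrays, leaving 9382 genes. Of the 22690 probe sets, 64 controls, 691 with several symbols and 1555 with none were left out. A linear model of all 9 arrays, moderated with an intensity trend (limma 3.58.1, R 4.3.3, 5 residual degrees of freedom), gave differences, standard errors and p adjusted over all genes, with a threshold of 0.05. Comparisons that share arrays are not independent. The 3 subunit pairs were tested by exact permutation of a between-stage F. The fit and the permutation test were tested on simulated data.

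The members, role groups and pathway lists were chosen with earlier results of these data known. Values on every array are given for the catalytic pairs, Psme1, Psme3, called members and, in each role group, the 2 with the largest absolute difference in MK6 against MKP. Called members and the 4 largest differences of each pathway list are named, and further genes were picked with their values in view. Promoter sequences are RefSeq's (GRCm38.p6). Leaving out 1 array of a pair assumes that the lone array varies like the other stages. Alternatives changed the pseudocount, filter, scaling, probe set rule, variance trend and covariate and left out arrays. The number of arrays limits precision.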

Additional observations from a re-analysis of the deposited data

How the results depend on the processing

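No paired analysis was possible because the titles carry no replicate numbers shared between stages. The 2 called members of MK6 against MKP became 1 with no filter on low values, 1 with quantile normalization, 1 without an intensity trend, 0 in a fit with the actin ratio as a covariate, 11 of 47 with MK6 replicates 2 and 3 both left out (which keeps the MK6 array on which most members were lowest, and calls 20.3% of all genes) and 0 with MK6 replicates 1 and 3 both left out, a choice made after seeing the data. Over the 9 single arrays left out the count was 0 to 5, and 0 to 1 in MK6 against MK4. The 1 member called in any step became 0 with the covariate, 6 with MK6 replicates 2 and 3 left out (7.5% of all genes) and 0 with MK6 replicates 1 and 3 left out, with a range of 0 to 3 over single arrays. MK6 against MK4 had 3 called members with MK6 replicates 2 and 3 left out (3.86% of all genes).

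Signs turned in a few uncalled genes. With the covariate Psma6 was at -0.0018 and Psmb5 at -0.019, with MK6 replicates 2 and 3 left out Psmb5 was at -0.077, and with the mean of all kept probe sets Psmd7 was at 0.077. Psmb10 minus Psmb7 was 0.24 with MK6 replicates 2 and 3 left out. The cause was not tested. Over single arrays left out, Psmb8 minus Psmb5 ran from -1.25 to -1.08, Psmb9 minus Psmb6 from -1.82 to -1.15 and Psmb10 minus Psmb7 from -1.20 to -0.46. Psme3 also lost its call with no filter, quantile normalization, a common median, no trend and the covariate, at -1.59 to -1.08. Scaling to a common median put the median of all genes at 0.005 and that of the members at -0.29, against 0.12 and -0.13 in the report. Nfe2l2 also lost its call in the fit with the actin ratio (1.0045, adjusted p = 0.34) and with MK6 replicates 1 and 3 left out (1.16, adjusted p = 0.0952), and Stat2 with no filter (-1.32, adjusted p = 0.0534), without a trend (-1.32, adjusted p = 0.0603), in the fit with the actin ratio (-0.81, adjusted p = 0.56) and with either pair of MK6 arrays left out (-0.98 and -1.21). The 2 or 3 arrays of a stage limit the precision.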
